A study of Mus musculus with 4 samples.

Results

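Replication-dependent histone genes were followed in RNA of mouse T helper 2 (Th2) cells, together with the rows annotated on the strand opposite them. A row is 1 gene entry of the deposited count tables. Members were taken by name and position, not by their counts: every row whose symbol starts with Hist1h, Hist2h, Hist3h or Hist4h, and every row on the other strand that shares exon bases with such a row. This gave 68 histone rows and 24 opposite rows, 92 of 50600 rows in all, joined in 25 pairs. The histone rows comprised 6 of class H1, 20 of H2A, 17 of H2B, 12 of H3 and 13 of H4, among them 3 pseudogenes (Hist1h2aj, Hist1h2al and Hist3h2bb-ps). By cluster, 54 lay in Hist1, 10 in Hist2, 3 in Hist3 and 1 in Hist4.

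The cells were primary Th2 cells of mouse strain C57BL/6NJ, in 4 libraries labelled biological replicates 1 to 4 of a single group, and according to the file headers they were taken at 48 hours in a time course of Th1 and Th2 cells. No treatment, mutant or other cell type was available for comparison, the donor identifier was the same for all libraries, and age and sex were unknown or not collected. The labels differ on the RNA: total RNA in the assay, poly(A)+ RNA in the name of the linked library protocol. Values are counts of read pairs that the authors assigned to a row by strand. Nothing in the labels says that the replicates came from separate animals, so p-values measure the spread between these libraries only.

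The libraries held 1785970 to 2271993 counts. CT010467.1, annotated as ribosomal RNA, and Gm42418 on its other strand took 3.25% to 5.02% of the counts in replicates 1 to 3 and 15.9% in replicate 4. Levels are therefore given as CPM, the usual scaling by library total, here of the counts outside these 2 rows. For a row at 0 the counting floor was 3 counts, which is 1.38 to 2.00 CPM by library. In marker lists, 7 of 7 T cell rows and 4 of 4 Th2 rows exceeded 3 counts in every library, against 0 of 2 CD8 T cell rows, 1 of 4 B cell rows and 1 of 4 macrophage rows. The B cell rows Cd79a and Ighm had 14, 8, 4 and 7 and 9, 8, 4 and 3 counts. No counts were found for Ms4a1, Adgre1, Ncr1 and Klrb1c of B cells, macrophages and NK cells in any library. The macrophage row above the floor was Csf1r, with 1409, 1363, 1457 and 1066 counts, which overlaps Hmgxb3 on the other strand (16, 9, 4 and 9 counts). T cell and Th2 rows had such overlaps too. Cd3e (18, 20, 6 and 9 counts) lay below Gm48719 (2351, 2067, 2361 and 1692). Gata3 (44, 35, 21 and 20) lay below Gm13256 (2300, 2218, 2625 and 2048), and Stat6 below Nab2. Cd247 (1360, 1364, 1278 and 972) lay above Pou2f1 (330, 267, 331 and 180). The dividing-cell rows Mki67 (197, 206, 144 and 182 counts), Top2a (155, 137, 108 and 128) and Pcna (87, 81, 44 and 51) exceeded 3 counts in every library.

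Histone proteins package DNA: H2A, H2B, H3 and H4 form the nucleosome core, and H1 binds the linker DNA between nucleosomes. Genes of the replication-dependent kind sit in clusters, lack introns as a rule, and are transcribed mainly in S phase, when newly copied DNA has to be packaged. Their mRNAs are the textbook exception to polyadenylation in animal cells. They end shortly after a conserved stem-loop, which the stem-loop binding protein SLBP holds, in place of a poly(A) tail. Replication-independent histone genes such as H3f3a, H2afz and H2afj give polyadenylated mRNAs through the cell cycle.

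The stem-loop was searched for because it takes the place of a tail in these mRNAs. It was taken as 6 bases starting GG and ending CT, a loop of 4 bases, and the exact reverse complement of the 6 bases, read on the sense strand in the 100 bases after the stop codon. Of 52 histone genes with an annotated 3′ UTR, 44 held it (84.6%), against 7 of 20920 other protein-coding genes (0.0335%), with H2afx, an H2A variant gene outside the clusters, among the 7. It was present in 4 of 5 H1 genes, 11 of 13 H2A, 8 of 12 H2B, 9 of 10 H3 and 12 of 12 H4. The stem differed by class: GGCTCT in all 32 genes of H1, H2A, H2B and H3 that held it, and GGCCCT (10 genes) or GGTCCT (2 genes) in H4. These examples are the partners of the opposite rows described below and the histone row with the most counts (5′ to 3′, GENCODE vM21 transcripts of GRCm38, capitals marking both arms of the stem).
Hist3h2a: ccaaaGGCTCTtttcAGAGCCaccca
Hist2h2ac: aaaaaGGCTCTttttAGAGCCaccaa
Hist1h2ae: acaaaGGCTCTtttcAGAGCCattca
Hist1h4b: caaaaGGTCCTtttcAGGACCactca
Hist1h4i: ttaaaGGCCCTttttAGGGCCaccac

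Rows opposite histone genes were mostly a feature of H2A. All 20 H2A rows had at least 1, against 1 of 17 H2B rows, 1 of 12 H3 rows, 1 of 13 H4 rows and 0 of 6 H1 rows. Over all rows 16.2%, and 22.1% of protein-coding rows, had an exon overlap on the other strand. Of the 24 opposite rows, 19 are annotated with the type miRNA and are 129 to 144 bases long. Each lies across an H2A gene, inside its coding part except for Gm44390, with 142 of 144 bases there, and for Gm44357 and Gm44341, whose partners are pseudogenes. Their counts are read pairs that touched the row, not levels of a mature miRNA. The other 5 are annotated as antisense: Gm15444, Gm20632 and Gm20633 opposite H2A genes, Gm20628 opposite both Hist2h3b and Hist2h2bb, and 4930558J22Rik opposite Hist1h4b.

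The miRNA-type rows are near-copies of each other. Of the 19, 8 have the same 138 bases: Gm19658, Gm44367, Gm44466, Gm44486, Gm44394, Gm44359, Gm44350 and Gm44484. Another sequence is shared by Gm47311, Gm47313 and Gm44341. The sequences shown are that shared by 8 rows, those of the rows with the most counts, that shared by 3 rows, and 2 rows of the same kind opposite H2A variant genes (5′ to 3′ on the row's own strand, GENCODE vM21 on GRCm38, the build named mm10 in the files). Capitals mark bases that differ from Gm19658, over the 99 bases in common for the last 2.
Gm19658: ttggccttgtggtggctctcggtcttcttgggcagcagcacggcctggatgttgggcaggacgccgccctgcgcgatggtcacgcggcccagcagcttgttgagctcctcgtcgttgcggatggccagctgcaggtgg
Gm44454: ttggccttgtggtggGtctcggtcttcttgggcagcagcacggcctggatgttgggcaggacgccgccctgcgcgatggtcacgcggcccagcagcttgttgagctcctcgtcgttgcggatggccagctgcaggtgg
Gm44313: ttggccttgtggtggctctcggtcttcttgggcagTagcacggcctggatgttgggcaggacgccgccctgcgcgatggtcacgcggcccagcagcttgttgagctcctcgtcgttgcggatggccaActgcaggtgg
Gm47311: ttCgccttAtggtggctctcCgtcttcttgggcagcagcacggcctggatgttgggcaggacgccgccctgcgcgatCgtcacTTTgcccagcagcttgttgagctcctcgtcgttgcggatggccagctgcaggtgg
Gm44335: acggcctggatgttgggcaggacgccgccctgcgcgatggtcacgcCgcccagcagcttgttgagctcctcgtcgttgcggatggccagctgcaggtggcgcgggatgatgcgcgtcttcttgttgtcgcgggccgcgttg
Gm44364: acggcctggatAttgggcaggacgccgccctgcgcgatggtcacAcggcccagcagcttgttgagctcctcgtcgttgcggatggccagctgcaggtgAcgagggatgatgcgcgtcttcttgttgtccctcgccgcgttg
Gm44454 (chr13:21753445-21753582, plus strand) differs from Gm19658 (chr13:21810712-21810849, minus strand) at 1 base and Gm44313 (chr11:58954983-58955120, minus strand) at 2. Gm47311 (chr3:96239868-96240005, plus strand) differs at 7. Gm44335 (chr9:44334965-44335105, minus strand) lies opposite H2afx and differs at 1 of 99 bases, and Gm44364 (chr6:136808543-136808683, minus strand) lies opposite H2afj and differs at 3 of 99.

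Histone rows of every class were at or near 0 counts in all libraries. The 68 rows together had 15, 12, 10 and 18 counts in replicates 1 to 4, and 43 of them had 0 in every library. Of the 68, 5 share exon bases with another row on the same strand. Hist2h3c1 does so over all its 1825 bases and Hist2h2aa1 over 529 of 586, both with Gm20634. The counting command named no option for pairs that touch 2 rows, so the 0 of Hist2h3c1 may depend on this overlap, which was not tested. Hist1h4i on chromosome 13 (22040636 to 22041362, minus strand), an H4 gene, had 1, 4, 3 and 1 counts, and it alone exceeded 3 counts in any library. No histone row averaged 3 counts. These counts do not give the amount of histone RNA in the cells. The orientation of the library kit is not given, and the labels differ on total or poly(A)+ RNA. The part of either in the low counts was not tested. In a bulk sample, fewer cells in S phase and less histone RNA per cell cannot be told apart either. Of the histone rows 63.2% had 0 counts in every library, against 65.8% of all 50600 rows. Among all protein-coding rows that share was 18.1% with an opposite overlap and 49.7% without.

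By class the histone rows differed by few counts. H1 rows summed to 3, 2, 3 and 7 counts, H2A rows to 2, 1, 1 and 1, H2B rows to 3, 3, 2 and 3, H3 rows to 3, 2, 1 and 4, and H4 rows to 4, 4, 3 and 3. H1, with 6 rows, H2B and H4 each exceeded H2A, with 20 rows, in every library, on sums of 1 to 7 counts, and this was not tested. Between other classes no order held in every library. Of the H1 genes, which encode linker histones, Hist1h1e had 2, 1, 1 and 2 counts, Hist1h1d 0, 1, 1 and 3, and Hist1h1c 1, 0, 1 and 2. Of the core histone genes, Hist1h2bc (H2B) had 1, 0, 0 and 3 counts, Hist1h2bj (H2B) 1, 1, 1 and 0, and Hist2h3b (H3) 2, 2, 0 and 0. None of these rows exceeded 3 counts in a library. By cluster, the rows of Hist1 summed to 10, 10, 8 and 16 counts, of Hist2 to 4, 2, 1 and 2, and of Hist3 to 1, 0, 1 and 0. The only Hist4 row, Hist4h4, had 0 in every library, and Hist3h2a likewise. As a share of all counts, the histone rows held 0.000672% ± 0.000239 (SD, n = 4). The 23 histone rows that have an opposite row summed to 5, 3, 1 and 1 counts, and the 45 without any to 10, 9, 9 and 17.

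**Figure D1:**
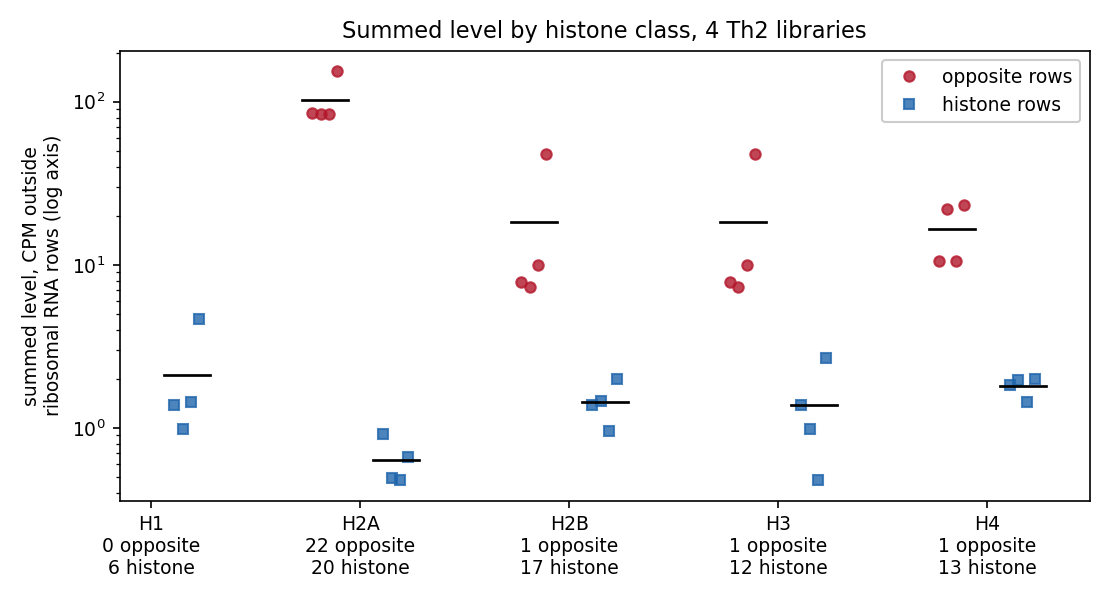
Summed level of opposite rows (red circles) and histone rows (blue squares) by histone class, in CPM of counts outside the ribosomal RNA rows on a log axis, with 1 point per library and the mean as a bar. Opposite rows of H2A lie between 84.2 and 154 CPM, while the H2A histone rows lie between 0.478 and 0.922 CPM. Gm20628 is drawn under both H2B and H3, and H1 has no opposite row.

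The opposite rows summed to 224, 232, 220 and 338 counts in replicates 1 to 4. That was 0.00986% of all counts (95% Wilson interval 0.00865 to 0.0112), 0.0110% (0.00966 to 0.0125), 0.00998% (0.00875 to 0.0114) and 0.0189% (0.0170 to 0.0211), a mean of 0.0124% ± 0.00435 (SD, n = 4). These intervals, like the floor, hold for counting error alone, because pairs counted without molecular identifiers can be copies of the same molecule. Over all libraries the opposite rows had 1014 counts and their histone rows 10, a ratio of 101 (exact 95% counting interval 54.9 to 212). The log2 ratio of the sums was 6.99 ± 1.34 (SD, n = 4), resting on 1 to 5 histone counts per library. The opposite row held more counts than its histone row in every library in 12 of 25 pairs. Across the table the non-coding row was higher in every library in 51.9% of 2688 pairs of a non-coding row opposite a protein-coding row. The share of 12 in 25 is thus near the background. By cluster, opposite rows in Hist1 summed to 111, 117, 99 and 161 counts, in Hist2 to 26, 21, 35 and 95, and in Hist3, where Gm44313 is the only one, to 87, 94, 86 and 82. No pair had the histone row higher in every library, and in 3 pairs both rows had 0 throughout.

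Of the 24 opposite rows, 10 exceeded 3 counts in every library (41.7%), 2 more did in some library, and 6 had 0 in all. Among all non-coding rows with an overlap on the other strand, 41.9% exceeded 3 counts in every library. The rows at 0 throughout were Gm20632, Gm47311, Gm47313, Gm19658, Gm44466 and Gm44344. Gm47311 lies inside Gm20632 and Gm47313 inside Gm20633 on the same strand, over 138 bases, and the counting command named no option for pairs that touch more than 1 row. The 0 of Gm47311 and Gm47313 may therefore depend on this overlap, which was not tested. The same holds for the shares of opposite rows and pairs that include them. The orientation of the library kit is not given in the sources used here, so the strand whose RNA gave these counts is not known. Pairs of genes outside the histones showed the same kind of split: Rpgrip1, known from photoreceptor cilia, had 6380, 5948, 6243 and 4279 counts, against 156, 150, 156 and 122 for Supt16 opposite it. The part of the strand setting in these values was not tested.

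Opposite H2A, whose products form a dimer with H2B in the nucleosome core, the highest row was Gm44313. It had 87, 94, 86 and 82 counts in replicates 1 to 4, against 0 in every library for Hist3h2a (chromosome 11, 58954685 to 58956830, plus strand). All 4 libraries of Gm44313 lay above all 4 of Hist3h2a, and the total was at least 116-fold higher than the floor of 3 counts over the group. The log2 ratio with a pseudocount of 0.5 was 7.45 ± 0.081 (SD, n = 4, exact two-sided sign-flip test p = 0.125). Sign flips over 4 libraries cannot reach a p below 0.125, here and in each pair that follows. Hist3h2a shares 708 bases with Trim17, a ubiquitin ligase gene on the same strand, which had 28, 30, 35 and 18 counts and also lies opposite Gm44313. The counting command named no option for pairs that touch both rows. The 0 of Hist3h2a, and with it the ratio, may therefore depend on this overlap, which was not tested.

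Gm44454, opposite Hist1h2ak (chromosome 13, 21753435 to 21753827, minus strand), had 20, 17, 16 and 42 counts, against 0 in every library for Hist1h2ak. Replicate 4 stood above the other 3 libraries, and the counts of the rows did not overlap. The total was at least 31.7-fold higher, and the log2 ratio was 5.49 ± 0.630 (SD, n = 4, exact p = 0.125). Gm44394, opposite Hist1h2ae (chromosome 13, 23570662 to 23571121, minus strand), had 23, 16, 14 and 17 counts, against 0 in every library for Hist1h2ae. Here replicate 1 had the most counts, and again the counts did not overlap. The total was at least 23.3-fold higher, and the log2 ratio was 5.15 ± 0.295 (SD, n = 4, exact p = 0.125).

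The other miRNA-type rows are named here, after their values were seen, so that every member is accounted for. Gm44486 (opposite Hist1h2ag) had 16, 10, 14 and 18 counts, Gm44492 (Hist2h2ac) 9, 6, 12 and 22, Gm44484 (Hist1h2ab) 9, 7, 8 and 14, and Gm44367 (Hist1h2ai) 8, 8, 11 and 9. Gm44297 (Hist1h2af) had 7, 4, 6 and 11, Gm44346 (Hist1h2an) 3, 5, 4 and 4, and Gm44350 (Hist1h2ac) 0, 2, 1 and 9. In all but Gm44350 the lowest opposite library was above the highest of its histone row, which had at most 1 count. Gm44359 had 0, 0, 3 and 0 counts, Gm44357 1, 1, 0 and 1, Gm44390 1, 1, 0 and 0, and Gm44341 0, 1, 0 and 1. Of the antisense rows opposite H2A, Gm15444 had 0, 0, 1 and 0 and Gm20633 0, 0, 1 and 1.

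**Figure D2:**
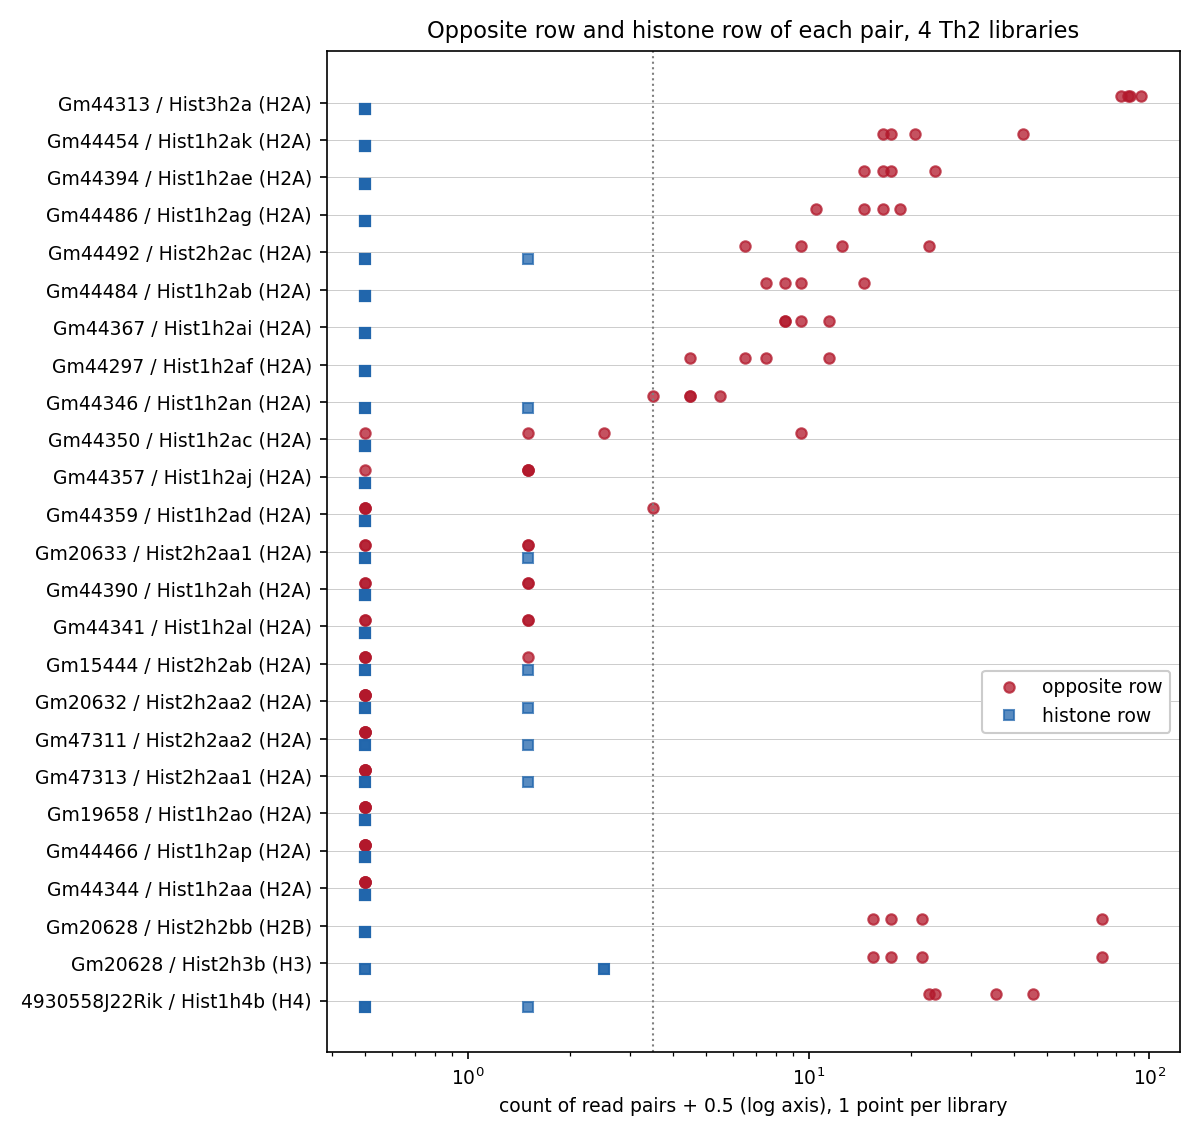
Counts of the opposite row (red circles) and the histone row (blue squares) of each of the 25 pairs, plus 0.5, on a log axis, with 1 point per library and the histone class in parentheses. The dotted line marks 3 counts. Histone rows lie at or left of 2 counts in every pair, while Gm44313 lies between 82 and 94.

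Opposite H2B and H3 there was 1 row, Gm20628 (chr3:96267075-96270289, minus strand, 3215 bases), which spans both Hist2h3b and Hist2h2bb. It had 17, 15, 21 and 72 counts, against 2, 2, 0 and 0 for Hist2h3b, an H3 gene, and 0 in every library for Hist2h2bb, an H2B gene. Replicate 4 held more counts than the other 3 libraries together, and Gm20628 was above both histone rows in every library. Over Hist2h2bb the total was at least 41.7-fold higher, with a log2 ratio of 5.67 ± 1.02 (SD, n = 4, exact p = 0.125). Hist2h2bb shares 226 bases with Gm42743 on the same strand, so its 0 may also depend on an overlap. Over Hist2h3b the total ratio was 31.3 (exact 95% counting interval 11.9 to 116), with a log2 ratio of 4.51 ± 2.19 (SD, n = 4, exact p = 0.125). Gm20628 is much longer than its partners: per kb of exon the log2 ratios were 2.60 ± 1.02 (SD, n = 4, exact p = 0.125) and 1.79 ± 2.19 (SD, n = 4, exact p = 0.375).

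Opposite H4 there was also 1 row, 4930558J22Rik (chromosome 13, 23756203 to 23757620, minus strand, 1099 exon bases), which shares 223 bases with Hist1h4b. It had 23, 45, 22 and 35 counts, against 1, 0, 0 and 0 for Hist1h4b (23757013 to 23757409, plus strand). Replicates 2 and 4 were higher than replicates 1 and 3, and every library of 4930558J22Rik was above every library of Hist1h4b. The total ratio was 125 (exact 95% counting interval 22.0 to 4976), and the log2 ratio was 5.53 ± 1.12 (SD, n = 4, exact p = 0.125). H1 genes had no opposite row, so nothing comparable was counted at them.

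Rows of the same type opposite the H2A variant genes H2afj and H2afx held far more counts. Gm44364, opposite H2afj, had 1834, 1673, 1759 and 1140 counts, against 37, 19, 22 and 15 for H2afj. Gm44335, opposite H2afx, the H2A variant that is phosphorylated at DNA breaks, had 1760, 1621, 1668 and 1184, against 16, 10, 6 and 11 for H2afx. In both pairs every library of the opposite row was above every library of the gene. The ratios of totals were 68.9 (exact 95% counting interval 56.1 to 85.5) and 145 (107 to 201), beside the 101 given above for the members and their histone rows. Gm44335 was set beside the members after its values were seen.

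The levels themselves differed. These rows are 138 to 141 bases long, so their levels per length can be compared directly. Gm44313, the highest member, stood at 329 ± 48.0 CPM per kb, against 5787 ± 280 for Gm44364 and 5656 ± 70.2 for Gm44335 (SD, n = 4). All 19 miRNA-type members together had 184, 172, 175 and 230 counts, against 3594, 3294, 3427 and 2324 for Gm44364 and Gm44335 summed. That was 5.12%, 5.22%, 5.11% and 9.90% of their counts in replicates 1 to 4. Each of the 19 was below each of the pair in every library. In Gm44364 and Gm44335 100% of the 100-base windows occurred in no annotated gene other than those overlapping the row, as in Gm44313. With 50-base windows the share was 95.7% for Gm44364, 51.1% for Gm44335 and 52.8% for Gm44313.

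How far reads can be told apart differed between members. The share of a row's 100-base windows found in no other annotated gene was 100% for Gm44313, Gm44492, Gm44297 and Gm44344, and 41.0% for Gm44454. It was 27.9% for Gm44357, 11.1% for Gm44390 and 0% for the other 12 miRNA-type rows. Genes that overlap the row were not counted as other genes. With 50-base windows the share was lower: 52.8% for Gm44313, 83.7% for Gm44492, 54.3% for Gm44297, 91.3% for Gm44344 and 18.0% for Gm44454. The 8 rows with the same 138 bases nonetheless had counts between 0 and 23: Gm44394 averaged 17.5 counts, Gm44359 0.75, and Gm19658 and Gm44466 had 0. A read pair wholly inside these bases fits any of the 8. No option was set for pairs with several places, so such pairs may be missing and the split of counts is uncertain. The sum of the 8 rows does not depend on that split, but can be an undercount: 56, 43, 51 and 67 counts. Unique sequence did not go with counts in each row, since Gm44344, opposite Hist1h2aa, is unique at 100 bases and had 0 counts in every library. The 5 antisense rows are longer, and 90.4% of the windows of Gm20628 and 96.9% of those of 4930558J22Rik were unique. Windows were taken from vM21 transcripts. The 1381 windows of 4930558J22Rik are more than the 1099 exon bases of the counted row can hold, so its share describes the vM21 entry. Histone rows also differed at 100 bases, from 0% for Hist2h2aa2, 5.16% for Hist1h2bq and 7.35% for Hist1h2ao to 100% for Hist2h2be and Hist1h1b. Of these 5 rows, Hist2h2aa2 had 1, 0, 0 and 0 counts and the others 0 in every library. The part of shared sequence in the low histone counts was not tested.

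**Figure D3:**
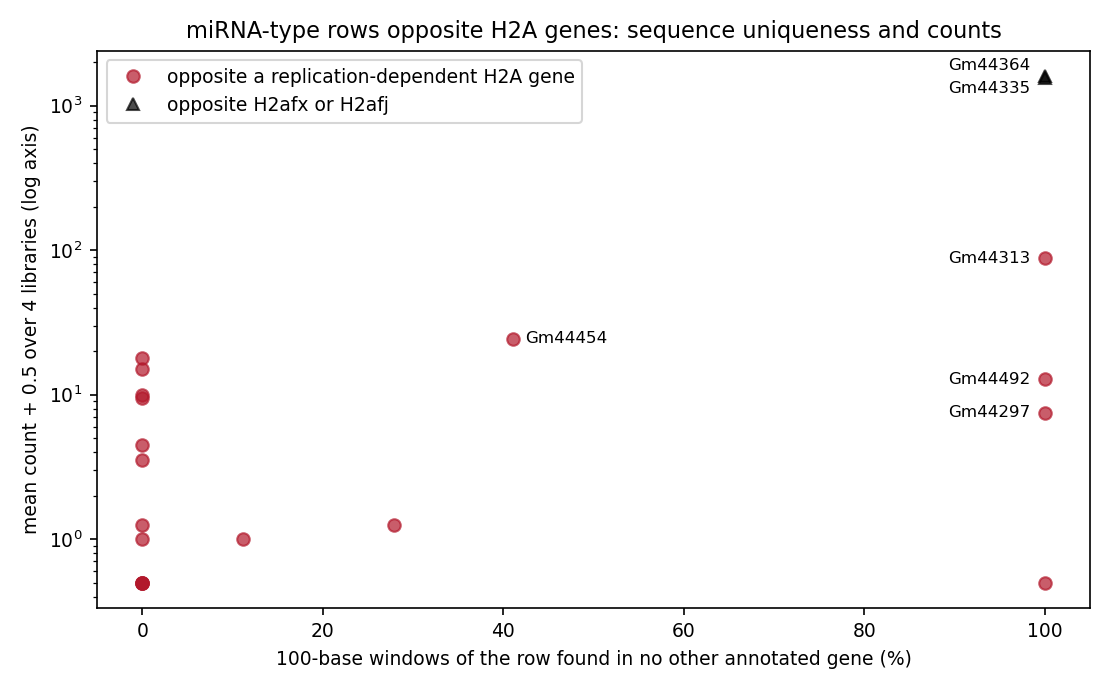
Mean count plus 0.5 over 4 libraries (log axis) of each miRNA-type row opposite an H2A gene, against the percentage of its 100-base windows found in no other annotated gene. Genes that overlap the row were not counted as other genes. Red circles are the 19 members and black triangles the rows opposite H2afj and H2afx. Among rows at 100%, the means run from 0 for Gm44344 through 87.3 for Gm44313 to 1602 for Gm44364.

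Within the miRNA type, lying opposite another gene went with having counts. Of 2202 such rows in the table, 2033 had 0 counts in all libraries and 49 exceeded 3 counts in every library. Among the 19 members 8 did so (42.1%), against 36 of 172 opposite other rows (20.9%) and 5 of 2011 with no row opposite (0.249%). The median of the mean counts was 3 for the members and 0 for each of the other kinds. The members share sequence, so they are not 19 independent rows. Gm47311 and Gm47313 also lie wholly inside antisense rows on their own strand, as described above.

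Levels of the opposite rows were higher in replicate 4 than in the other libraries. Summed over the 24 rows they were 103, 114, 105 and 225 CPM in replicates 1 to 4. Replicates 1 to 3 averaged 107 ± 5.47 (SD, n = 3), and replicate 4 was 2.10 times that mean. The 19 miRNA-type rows had 84.8, 84.2, 83.6 and 153 CPM, a ratio of 1.82, and without Gm44313 the ratio was 2.36. Of the 11 opposite rows with a mean of at least 3 counts in replicates 1 to 3, a filter that leaves replicate 4 out, 11 were highest in replicate 4. Among all 10184 rows with such a mean, 30.8% were highest there. Scaled by all counts, 8 of the 11 were highest in replicate 4 (Gm44346, Gm44394 and 4930558J22Rik were not), against 16.7% of all these rows. With DESeq2 size factors 10 were (Gm44367 was not), against 22.5%, and with TMM factors 11, against 23.7%. Replicate 4 had the fewest counts in all. Before scaling, Gm44313, Gm44367, Gm44394, Gm44346 and 4930558J22Rik had their highest count in another library. Gm44367, Gm44394, Gm44486 and Gm44484 have identical sequences, so the 11 are not independent rows, and several rest on few counts.

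The rise was uneven among the members. Gm20628 was 5.71 times higher in replicate 4 than the mean of the others, Gm44492 3.43 times and Gm44454 3.33 times, whereas Gm44313 was 1.29 times higher. Gm44364 and Gm44335 together were at 0.947 times that mean. Histone rows summed to 6.92, 5.87, 4.78 and 11.99 CPM, a ratio of 2.05 that rests on 18 counts. Ribosomal RNA moved with the same library: CT010467.1 had 102954, 68555, 110661 and 283933 counts and Gm42418 189, 80, 88 and 592. Ccdc107, which lies opposite Rmrp, the RNA of RNase MRP that also lacks a poly(A) tail, had 47, 55, 58 and 309 counts, against 1, 0, 0 and 0 for Rmrp. The part of ribosomal RNA content in the histone result was not tested.

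**Figure D4:**
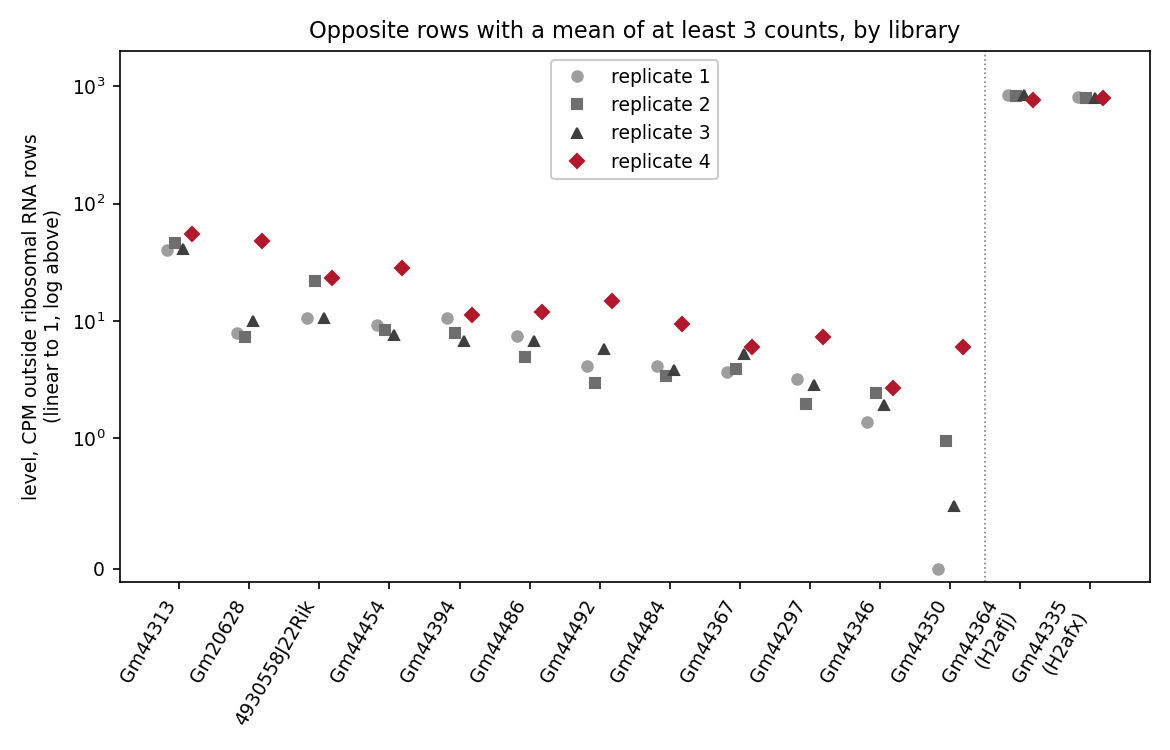
Level in each library of the 12 opposite rows with a mean of at least 3 counts, and of the rows opposite H2afj and H2afx (right of the dotted line), in CPM of counts outside the ribosomal RNA rows on an axis that is linear to 1 and logarithmic above. Replicate 4 (red diamonds) stands at 54.6 CPM for Gm44313 and 2.66 CPM for Gm44346, the highest library of each, and is not the highest for the other 2 rows. Gm44350 reaches the mean of 3 through replicate 4 alone.

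Variation between replicates was tested across all rows with edgeR, by the goodness of fit of a model with no difference between libraries. Of 5064 rows tested, 23 varied beyond rows of like abundance at an adjusted p under 0.05 (0.454%). Only 6 members, all opposite rows, had enough counts to be tested, and 1 of them passed: Gm20628 (edgeR adjusted p = 1.73e-06). Without replicate 4 it did not pass (edgeR adjusted p = 1.00). There 0 of 6 members passed, and 0 had an unadjusted p under 0.05. With all libraries 3 of 6 did, against 260 of 5064 rows (5.13%). Gm44454 missed the threshold (edgeR adjusted p = 0.0983), as did 4930558J22Rik (edgeR adjusted p = 0.865) and Gm44313, Gm44394 and Gm44486 (edgeR adjusted p = 1.00 each). No histone row could be tested.

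Most rows of genes that act with the replication-dependent histones exceeded 3 counts in every library, which no histone row did. Among all protein-coding rows, 53.4% with an opposite overlap and 19.0% without exceeded 3 counts in every library. The rows differ in length, with 727 bases for Hist1h4i and 6076 for Slbp, and per kb the levels overlapped. Hist1h4i stood at 1.55 CPM per kb, against 0.954 for Npat, 1.67 for Slbp and 39.6 for Ncbp2. Of 17 rows of histone mRNA transcription and 3′ end processing, 14 exceeded 3 counts in every library. The highest were Cpsf2, a subunit of the cleavage complex, at 103 ± 8.26 CPM, Ncbp2, of the cap-binding complex, at 91.3 ± 8.10, and Srrt, which works with the cap-binding complex, at 54.8 ± 9.47 (SD, n = 4). Gm10459 had 1277, 1188, 1330 and 1000 counts, against 31, 21, 10 and 17 for Slbp opposite it. Of 13 histone chaperone rows, 12 exceeded 3 counts in every library, led by Nap1l1 (84.8 ± 24.6 CPM), Supt16 (75.3 ± 4.13) and Ssrp1 (64.6 ± 17.8), the last 2 being the subunits of the FACT complex. Of 20 S phase rows 17 did, led by Ccne2 (217 ± 19.5), the cyclin E2 gene of S phase entry, and Mcm7 (64.3 ± 7.76), of the replicative helicase. The highest rows opposite these lists were Gm10459, Xpa (1175, 1144, 1263 and 858, opposite Ncbp1) and Nox1 (524, 405, 479 and 255, opposite Cstf2) for mRNA processing. For the chaperones they were Rpgrip1, Ubxn6 (2573, 2491, 2600 and 1820, opposite Chaf1a) and Mcm9 (1788, 1857, 1925 and 1308, opposite Asf1a). For S phase they were Ap4m1 (1572, 1472, 1596 and 1279, opposite Mcm7), Ints8 (721, 700, 685 and 429, opposite Ccne2) and Pmel (550, 500, 479 and 403, opposite Cdk2). In edgeR 9, 7 and 12 rows of the 3 lists were tested for variation and 0 passed, with 1, 2 and 3 at an unadjusted p under 0.05, a p that 5.13% of all tested rows had. DESeq2 marked 0 of them as dispersion outliers.

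Replication-independent histone rows had more counts in sum, though not row by row. Of 11 such replication-independent rows, 8 exceeded 3 counts in every library, and 5 were tested with edgeR. Of these 0 passed, 1 had an unadjusted p under 0.05, and DESeq2 marked 0 as dispersion outliers. H1f0, a linker histone of resting cells, stood at 43.5 ± 4.78 CPM, H2afy, which encodes macroH2A, at 40.3 ± 5.04, and H3f3b at 38.5 ± 11.5 (SD, n = 4). The 68 replication-dependent rows summed to 15, 12, 10 and 18 counts, against 437, 306, 283 and 276 for these 11 rows. Row by row the lists overlapped: Hist1h4i, with 1, 4, 3 and 1 counts, averaged 2.25, against 1.00 for H1fx. The most counts opposite them were in Gm5577 (3186, 3150, 3212 and 2322, opposite H1fx with 1, 1, 2 and 0) and Gm17275 (2222, 1819, 2093 and 1299, opposite H3f3a with 9, 7, 3 and 2). Other RNAs known to end without a poly(A) tail were at the floor like the histone rows. Of 11 such rows 0 exceeded 3 counts in every library and 8 had 0 throughout, Rn7sk and Terc among them. Among all 50600 rows 14.8% exceeded 3 counts in every library and 65.8% had 0 throughout. The part of the RNA ends or of the strand setting in these counts was not tested. Rn7s1, of the signal recognition particle, had 1, 1, 0 and 1 counts, and Gm28872, opposite Rnu11, 1, 0, 1 and 1.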

How the data were processed

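Gene counts of 4 Th2 RNA-seq libraries were used, with group and replicate numbers from the labels. The deposited values are unnormalized counts of read pairs, made by the authors with featureCounts 1.4.6-p4 per the file headers: strand setting 1, both ends mapped, exons summed by gene, GENCODE M13, mm10. The BAM name points to STAR, and its version is not given in the sources used here. Exon lengths in bp, a value of another kind, are also deposited. No option was set for pairs with several places or rows, so near-identical copies can be undercounted or split.

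Names, types and sequences came from GENCODE vM21, which had no match for 224 of 50600 rows. Of the rule's 70 symbols, 68 had a row. In vM21, 71 of 92 members and 23 of 24 opposite rows had the same coordinates. An overlap was any shared exon base. Variation was tested with edgeR 4.0.16 (limma 3.58.1 and R 4.3.3): TMM factors, filterByExpr, trended dispersion and a Benjamini-Hochberg threshold of 0.05, tested on simulated data. As alternatives, size factors and outliers in dispersion were taken from DESeq2 1.42.0. Other steps used Python 3.11.15 with pandas 2.3.3, SciPy 1.17.1, numpy 2.4.6 and Matplotlib 3.10.9. Ratios took a pseudocount of 0.5, with exact two-sided sign flips. Alternatives were other denominators, overlap minimums, pseudocounts, filters and dispersions, and each replicate left out.

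The members, lists and tests were chosen with earlier results of these data known. Named by rule were histone rows with a mean of at least 3 counts (there were none), the 3 highest opposite rows of each class with their partners, members past the variation threshold, the 3 highest rows of each other list with the 3 highest opposite them, and CT010467.1, Gm42418 and Ccdc107. The other members, marker rows, the rows opposite marker rows, Slbp, H2afx with Gm44335, Gm20634 and Trim17 were named after their values were seen. Some rows that the rule names are not reported here.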

Additional observations from a re-analysis of the deposited data

Results flagged for a closer look

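Of 45 values checked over the 4 libraries, 11 had 1 library far from the other 3, by the gap to its nearest neighbour relative to the whole range. Chance gives about 1 in 20. Of the 11, 10 stood apart through replicate 4, and several are sums of the others. The summed level of the opposite rows was 225 CPM there, their share of all counts 0.0189%, and the miRNA-type rows summed to 153 CPM. Among single opposite rows, Gm20628 stood at 48.0 CPM, Gm44454 at 28.0, Gm44484 at 9.32 and Gm44350 at 5.99, the last on 9 counts. Outside the members, replicate 4 held 206 CPM of Ccdc107, 189106 CPM of CT010467.1 and 394 CPM of Gm42418, in each case the highest library. Gm5577, opposite H1fx, stood apart through replicate 1 as the lowest, at 1469 CPM against 1534 to 1547 in the others. Gm44313, Gm44394, the histone rows and the rows opposite H2afj and H2afx did not stand apart.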

How the results depend on the processing

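The share of counts in opposite rows was 0.0124%. It was 0.00317% when 50% or more of the histone row had to be shared, which leaves the 5 antisense rows, and 0.00661% for opposite rows that overlap histone rows alone, which drops Gm44313 among others. It stayed within 1 SD of the main value under other denominators, without Gm20628 (0.0108%) or Gm44313 (0.00824%, both chosen after the data were seen), and at 0.0103% to 0.0133% with 1 replicate left out. The histone share was 0.000561% to 0.000745%, the log2 ratio of sums 6.51 to 7.49 and the number of higher pairs 12 to 13 with 1 replicate left out.

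Rows called variable numbered 23, but 15 with no filter on low counts (more rows tested), and 7 to 20 with 1 replicate left out, 7 without replicate 4 and 12 without replicate 3. Members called numbered 1, but 2 with a common dispersion, which added Gm44454, and 0 to 1 with 1 replicate left out, 0 without replicate 4. Log2 ratios of the 6 named pairs were 2.75 to 4.91 with a pseudocount of 3. Their sign is no sign of stability, since the pairs were chosen for high opposite rows and 4 of the 6 histone rows had 0 in every library. The filter on replicates 1 to 3 for the rows highest in replicate 4 was chosen after the data were seen. The median log2 ratio of replicate 4 over the mean of replicates 1 to 3, over all tested rows, was 0.05 for the scale used. Scaled by all counts it was -0.14. No paired analysis was possible because the libraries form 1 group. Histone rows at 0 to 4 counts cannot show differences at this depth.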
